A study of Homo sapiens with 32 samples.

Results

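The genes examined here are 36 members of the glycolytic pathway and of the cellular response to low oxygen, taken as a fixed list of gene symbols, all of which were found among the 17788 genes of the count table. They were measured by RNA sequencing in 32 libraries of MCF10A cells, an immortalized but non-tumorigenic human mammary epithelial line. The cells were single cell-derived clones that had all passed through a CRISPR/Cas9 procedure. Clones 2 and 27 (JUNB WT) kept an unedited JUNB gene, whose product forms part of AP-1 transcription factors, and clones 1 and 65 (JUNB mut, labelled JUNB knock-out) carried large deletions in it. The study describes the mut clones as lacking the WT protein but still making a low amount of a smaller TGFβ1-inducible polypeptide that reacted with a JUNB antibody, so they are called mut here rather than null. Each clone was harvested after solvent alone or after 5 ng/mL TGFβ1, a cytokine that halts epithelial growth and drives epithelial-mesenchymal transition, for 6, 24 or 72 h. Every condition was repeated in 2 replications per clone, which gives 8 groups of 4 libraries. The solvent libraries carry the time point 0 in their labels, although the methods state that these cells were kept in solvent for as long as the longest treatment. All groups shared a medium with serum, EGF, insulin, hydrocortisone and cholera toxin, and neither the labels nor the methods name a hypoxia treatment. The p-values measure the spread between replications of 2 clones per genotype, and with 2 clones a difference between genotypes cannot be told apart from a difference between clones.

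Glycolysis breaks glucose down to pyruvate in the cytosol. Hexokinases trap glucose in the cell, phosphofructokinases commit it to the pathway, and lactate dehydrogenases turn pyruvate into lactate, which monocarboxylate transporters carry out. Hypoxia-inducible factors (HIFs) are dimers of an oxygen-labile alpha subunit, such as the products of HIF1A and EPAS1 (HIF-2 alpha), with ARNT, and they bind short response elements in the control regions of many glycolytic genes. When oxygen is present, prolyl hydroxylases encoded by the EGLN genes mark the alpha subunits for degradation, and some EGLN genes are themselves HIF targets. Pyruvate dehydrogenase kinases inhibit pyruvate dehydrogenase, the enzyme that oxidises pyruvate within the mitochondria. Because HIF activity is set mainly through protein stability, the transcript levels given here are not a measure of it.

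The letters that form the core of the HIF response element, ACGTG or GCGTG, were looked up in the promoter windows of the RefSeq table (GRCh38.p14, 250 bases before to 50 bases after the annotated start, both strands). A window was given for 32 of the 36 members, the others being SLC2A3, SLC16A1, BNIP3L and NDRG1. ACGTG was found in 13 member windows (40.6%) and GCGTG in 17 (53.1%), against 25% and 47.2% of the 13467 windows of all genes in the table. The E-box CACGTG, which contains ACGTG on both strands, was found in 5 (15.6%), against 9.24% of all windows. Either core was found in 24 member windows (75%, against 59.4%), and 8 held none, among them PDK1, PFKM and PFKP. The stretches below are examples from members whose window held a core: 6 that fell with TGFβ1 in WT cells, and PFKFB4 and EPAS1, which rose. Other members with a core, such as LDHB, are not shown. Each is written 5′ to 3′ on the strand of the gene, and the capitals mark the core, with CACGT being ACGTG read on the opposite strand. A match describes the sequence and not a bound site.
CA9 (chr9:35673898-35673926, plus strand): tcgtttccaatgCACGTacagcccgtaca
HK2 (chr2:74834067-74834095, plus strand): aatgggcgtgcgCACGTcactgatccgga
GPI (chr19:34364818-34364846, plus strand): acactgcctgtaACGTGgaaggtgttcga
ALDOC (chr17:28576907-28576935, minus strand): ccccggaggagtCACGTagctctgcgaca
LDHA (chr11:18394478-18394506, plus strand): cgtgggttcccgCACGTccgccggccccc
EGLN1 (chr1:231422284-231422312, minus strand): gggccgtggtgtACGTGcagagcgcgcag
PFKFB4 (chr3:48556953-48556981, minus strand): tgagttgggcatGCGTGgtcggaggccgg
EPAS1 (chr2:46297278-46297306, plus strand): gggcctgccggcGCGTGcccgcccacaca
The first letter of the core shown stood at -18 in CA9 and at -13 in EGLN1, counted from the annotated start, and RefSeq starts can differ from the outermost start of a gene given elsewhere in the text. The HK2 window held GCGTG 7 bases upstream of the core shown, and the LDHA window held 5 matches to ACGTG, 4 of them within its 2 E-boxes.

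The libraries held between 39702412 and 54651906 assigned counts, so that a gene with 3 counts stood at 0.0549 to 0.0756 counts per 1000000 (CPM). The basal epithelial markers KRT5, KRT14 and KRT17 and the epithelial CDH1 and EPCAM were present in every library, and the leukocyte genes PTPRC and CD3E were below 0.05 CPM in all of them. Of 8 listed markers of other cell types 5 were in the table and 3 were tested. The monocyte gene CD14 was lower in WT at 72 h (log2 change -2.31, adjusted p = 6.02e-07), the mesenchymal gene PDGFRA was higher (2.22, adjusted p = 4.37e-05) and the fibroblast gene DCN was not called. The summed level of the 5 genes ranged from 20.2 to 32.1 CPM in WT solvent, 9.01 to 18.6 CPM in WT at 72 h, 38.97 to 45.5 CPM in mut solvent and 33.1 to 47.4 CPM in mut at 72 h, and their part in the changes of the members was not tested. JUNB transcripts were counted in both genotypes, at 117, 90.0, 89.7 and 94.0 CPM in the WT solvent libraries and 69.2, 77.5, 128 and 172 CPM in the mut solvent libraries. The ranges overlapped, so these gene counts do not check the edit. Values are listed throughout as clone 2 replications 1 and 2 and clone 27 replications 1 and 2 for WT, and as clone 1 replications 1 and 2 and clone 65 replications 1 and 2 for mut, and a single library is named by clone and replication, so that WT solvent 2-1 is replication 1 of clone 2. Of the members, 14 overlap another gene of the table, and with an unstranded library kit reads from the overlap cannot be assigned to either gene with certainty: these are SLC16A1, SLC16A3, PFKM, ALDOC, TPI1, PGK1, ENO1, ENO2, PFKFB4, HIF1A, EGLN3, CA9, BNIP3L and ANKRD37. Changes are given as log2 differences with their SE from 1 limma-voom fit over all 32 libraries. A gene was called, and is said to have risen or fallen, where the p-value adjusted over all 14865 genes tested by the method of Benjamini and Hochberg was under 0.05.

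In the JUNB WT clones 18 of the 36 genes fell with TGFβ1 at 24 h and 19 at 72 h, most of them glycolytic enzymes, where 38.0% and 38.4% of all genes fell. With composition-corrected (TMM) scaling 11 and 9 of these falls were also called. In the JUNB mut clones 9 and 6 fell, where 17.1% and 16.3% of all genes did. The change was higher in mut than in WT for 5 members at 24 h (7.72% of all genes) and for 6 at 72 h (9.40%), and lower for 1 at 72 h (2.92%). The enzyme isoforms moved in different directions: HK2, GPI, PFKM, LDHB and PDK1 fell, PFKP and the regulator PFKFB4 rose, and EPAS1 rose while the prolyl hydroxylase EGLN1 fell. Together the 36 genes took 1.43% ± 0.04 (SD, n = 4) of all counts in WT solvent libraries, 1.43% ± 0.06 at 6 h, 1.23% ± 0.05 at 24 h and 1.23% ± 0.03 at 72 h. For the mut clones the corresponding shares were 1.38% ± 0.07, 1.43% ± 0.04, 1.32% ± 0.08 and 1.35% ± 0.05. At 24 h the ranges of the genotypes overlapped (1.18 to 1.30% in WT and 1.24 to 1.44% in mut), and at 72 h they did not (1.20 to 1.27% and 1.28 to 1.39%).

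The average log2 CPM over the members weights each gene equally and gave 6.59 ± 0.16 in WT solvent (SD, n = 4), 6.50 ± 0.13 at 6 h, 6.20 ± 0.07 at 24 h and 6.21 ± 0.03 at 72 h. In mut cells it was 6.31 ± 0.02, 6.26 ± 0.07, 6.19 ± 0.06 and 6.22 ± 0.05. The difference from solvent at 72 h was thus -0.38 in WT and -0.09 in mut, and with TMM -0.22 and -0.01. It was negative in all 4 series of each genotype, a series being the 4 libraries of a clone and replication, and ranged from -0.60 to -0.29 in WT and from -0.12 to -0.04 in mut. A single library and a single gene weighed on these means. The WT solvent library of clone 2 replication 1 stood at 6.83, against 6.50 to 6.53 in the other WT solvent libraries, and without its series the WT difference at 72 h was -0.31. Without CA9, a gene of few counts, the differences at 72 h were -0.25 in WT and -0.02 in mut. The mut clones were lower than WT in solvent by 0.28 and at 6 h by 0.24, with differences of -0.01 at 24 h and 0.01 at 72 h. With the median over members in place of the mean, mut differed from WT by 0.01 in solvent, -0.05 at 6 h and at 24 h and 0.18 at 72 h. The median level of the members within a library changed from solvent by -0.18 in WT and -0.24 in mut at 24 h. At 72 h it changed by -0.38 and -0.21. The median level thus fell more in mut at 24 h, and the mean level more in WT. A median level follows the genes in the middle of the ranking and is not the median of the changes of the genes. The mean of the roles by library is shown in the plot of role averages.

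**Figure D1:**
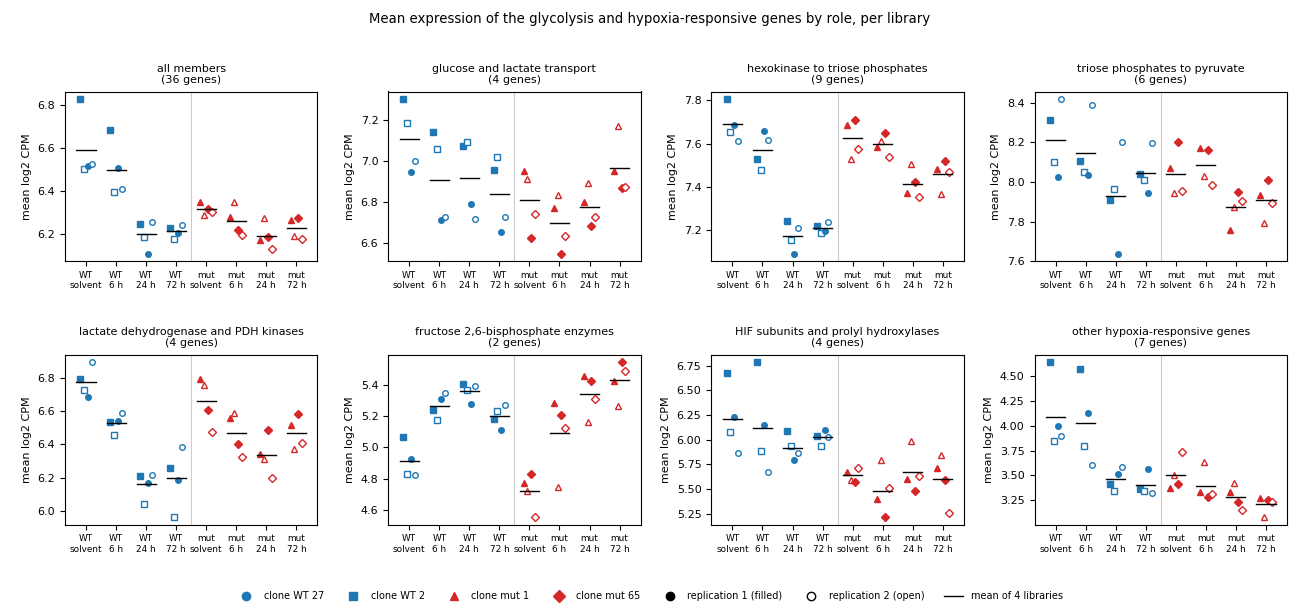
Mean log2 CPM of the members of each role and of all 36 members (y axes) in each library, by treatment (x axis) and genotype, with 1 point per library (shape for the clone, filled for replication 1 and open for replication 2) and a line at each group mean. For all members, the WT solvent library of clone 2 replication 1 stands at 6.83, above the other WT solvent libraries at 6.50 to 6.53, and the WT means at 24 and 72 h are 6.20 and 6.21.

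In WT cells 6 members were called at 6 h, 3 higher and 3 lower, against 5.13% of all genes called higher and 11.9% called lower. At 24 h 22 members were called, 4 higher and 18 lower, where 14.1% and 38.0% of all genes were. At 72 h 25 were called, 6 higher and 19 lower, where 13.9% and 38.4% of all genes were. The median member change was -0.28 at 24 h and -0.25 at 72 h, and the median over all genes was -0.18 and -0.19. The library-size scaling of the study therefore placed the bulk of all genes below 0 in treated WT cells, and a fall of a member has to be read against that shift. With the trimmed mean of M-values (TMM), which corrects for library composition, the median of all genes was 0.00 at 24 h and -0.03 at 72 h. With TMM, the members called in WT were 8 higher and 11 lower at 24 h (23.5% and 23.2% of all genes) and 8 higher and 9 lower at 72 h (21.5% and 23.3%). Of the 18 falls at 24 h, 11 were also called with TMM, and of the 19 at 72 h, 9 were, while the 4 and 6 rises all were. The share of members called lower in WT at 72 h was above that of all genes with library-size scaling and close to it with TMM. The 3 treated times of a genotype share its 4 solvent libraries.

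In mut cells 7 members were called at 6 h, 3 higher and 4 lower, against 2.06% and 4.94% of all genes. At 24 h 14 were called, 5 higher and 9 lower (6.75% and 17.1% of all genes), and at 72 h 11, 5 higher and 6 lower (7.81% and 16.3%), the lower ones at a share close to that of all genes. With TMM the calls were 4 higher and 3 lower at 6 h (2.80% and 2.06% of all genes), 5 and 5 at 24 h (9.26% and 8.04%) and 6 and 4 at 72 h (10.7% and 9.91%). The samples of a series came from the same clone, and with the series as a block the called members were 11 in WT at 6 h (25.9% of all genes in either direction) and 17 in mut at 72 h (33.9%). In the main fit SLC2A3, PKM, EGLN3, ANKRD37 and NDRG1 were not called in any comparison tested between a pair of groups. SLC2A3 and EGLN3 were called in WT with the series block, and PKM with TMM, as given below. The map of member changes holds all 36 genes.

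**Figure D2:**
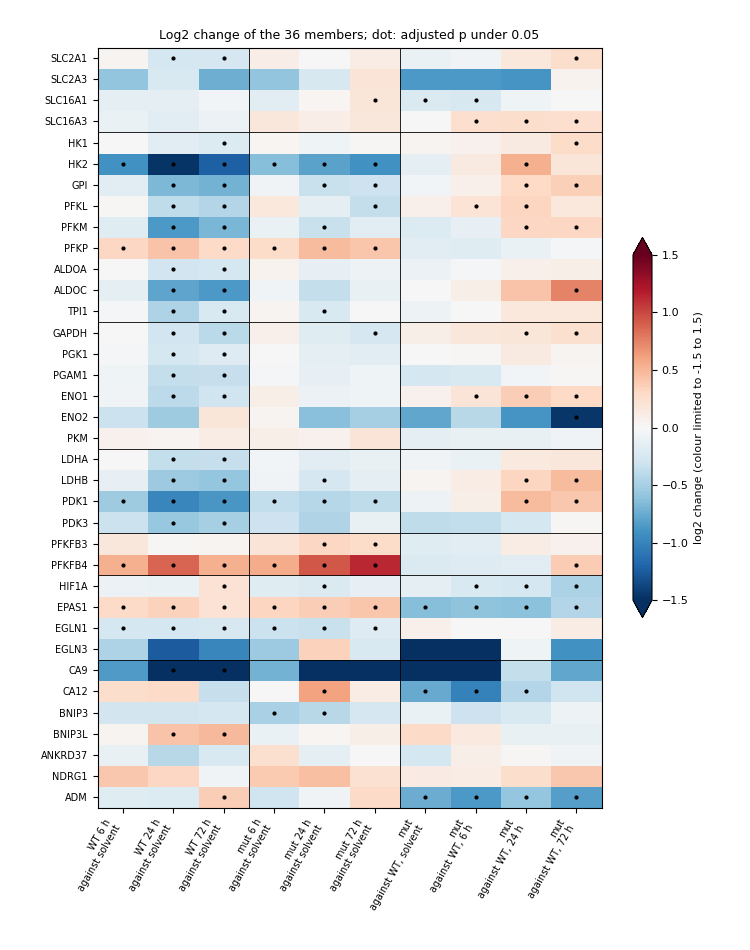
Log2 change of the 36 members (rows, by role) in 10 comparisons (columns), with the colour limited at -1.5 and 1.5 and a dot where the adjusted p was under 0.05. In WT at 72 h 19 members carry a dot for a fall and 6 for a rise, and in mut at 72 h 6 and 5.

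Genes whose products transport glucose and lactate gave few calls. Gene coordinates here and below are those of GENCODE 44 (GRCh38). SLC2A1 (ENSG00000117394, chr1:42925353-42958893) encodes the common glucose transporter GLUT1. In WT cells it was counted at 152, 128, 135 and 124 CPM in solvent and 109.9, 104, 129 and 112 CPM at 72 h. In mut cells it was counted at 131, 128, 118 and 125 CPM in solvent and 129, 149.9, 128 and 135 CPM at 72 h. WT ranges overlapped between solvent and 72 h, and in mut the 72 h values began within the solvent range and extended above it. SLC2A1 fell by 0.27 ± 0.08 (adjusted p = 0.00463) in WT at 24 h and fell by 0.25 ± 0.08 (adjusted p = 0.00795) at 72 h, values close to the shift of all genes, and neither was called with TMM (-0.09, adjusted p = 0.356 at 72 h). In mut the change at 72 h was 0.11 ± 0.08 (adjusted p = 0.3). SLC2A3, the neuronal-type transporter GLUT3, ranged from 9.08 to 21.2 CPM in WT solvent libraries and had a change of -0.73 ± 0.44 (adjusted p = 0.167) at 72 h, which was called with the series as a block (-0.65, adjusted p = 6.88e-05). The lactate transporter genes SLC16A1 (MCT1) and SLC16A3 (MCT4) were not called in WT at any time, and SLC16A1 rose by 0.18 ± 0.07 (adjusted p = 0.0483) in mut at 72 h, a call lost without mut solvent 1-1, mut 72 h 1-1, mut solvent 65-1, mut 72 h 1-2, mut solvent 65-2 or mut 72 h 65-2 (adjusted p of up to 0.183).

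HK2 (ENSG00000159399, chr2:74834127-74893359), the inducible and mitochondria-bound hexokinase, had the largest called fall among the members apart from CA9. In WT cells it stood at 59.7, 59.2, 49.0 and 48.4 CPM with solvent, 30.3, 25.7, 26.7 and 32.6 CPM at 6 h, 23.5, 19.5, 17.5 and 18.2 CPM at 24 h and 23.3, 18.4, 23.9 and 27.3 CPM at 72 h. In mut cells it stood at 50.9, 53.2, 42.4 and 50.3 CPM with solvent, 27.2, 44.8, 26.4 and 31.4 CPM at 6 h, 26.8, 27.0, 29.2 and 29.4 CPM at 24 h and 27.7, 26.4, 25.3 and 25.2 CPM at 72 h. Every treated WT library lay below every WT solvent library, and in mut the same held at 24 and 72 h but not at 6 h. HK2 in WT fell by 0.91 ± 0.12 (adjusted p = 7.61e-06) at 6 h, by 1.47 ± 0.13 (adjusted p = 5.62e-10) at 24 h and by 1.22 ± 0.13 (adjusted p = 9.39e-09) at 72 h. In mut the falls were 0.64 ± 0.12 (adjusted p = 0.00216), 0.80 ± 0.12 (adjusted p = 3.37e-05) and 0.90 ± 0.12 (adjusted p = 3.55e-06) at the same times. All these were also called with TMM. HK1, the constitutive hexokinase, fell by 0.21 ± 0.07 (adjusted p = 0.0183) in WT at 72 h, close to the median of all genes, a call lost without WT 72 h 2-1, WT solvent 27-2 or WT solvent 2-2 (adjusted p of up to 0.069), and had a change of 0.02 ± 0.07 (adjusted p = 0.862) in mut.

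GPI (ENSG00000105220, chr19:34359480-34402413) makes fructose phosphate from glucose phosphate. It stood at 724, 707, 703 and 645 CPM in WT solvent, 461, 419.8, 422 and 436 CPM at 24 h and 429.9, 395, 431 and 445 CPM at 72 h. The mut libraries held 738, 617, 724 and 635 CPM with solvent, 526, 614, 551 and 462 CPM at 24 h and 569, 485, 592 and 534 CPM at 72 h. In both genotypes the treated libraries lay below the solvent libraries, and at both times the mut libraries lay above the WT libraries. GPI fell by 0.71 ± 0.08 (adjusted p = 1.31e-08) in WT and fell by 0.31 ± 0.08 (adjusted p = 0.00295) in mut at 72 h. Among the phosphofructokinase genes, PFKM (ENSG00000152556, chr12:48105139-48146404), the muscle-type subunit, fell and PFKP, the platelet-type subunit, rose. PFKM was counted at 182, 168, 163 and 160.0 CPM in WT solvent, 99.9, 103, 80.6 and 89.6 CPM at 24 h and 114, 113, 92.2 and 100.3 CPM at 72 h. Its mut values were 146, 134, 159.9 and 143 CPM with solvent, 110.03, 114, 119.9 and 117 CPM at 24 h and 136, 119.7, 144 and 121 CPM at 72 h. The treated WT libraries were all below the solvent ones, whereas the mut libraries at 72 h overlapped with theirs. PFKM fell by 0.86 ± 0.08 (adjusted p = 4.28e-10) in WT at 24 h and fell by 0.69 ± 0.08 (adjusted p = 1.96e-08) at 72 h. In mut PFKM fell by 0.34 ± 0.08 (adjusted p = 0.00185) at 24 h, and at 72 h its change was -0.16 ± 0.07 (adjusted p = 0.111), called with the series block (-0.16, adjusted p = 0.0179).

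PFKP, with a mean of 421 ± 33.4 CPM (SD, n = 4) in WT solvent and 515 ± 35.8 CPM at 72 h, was called higher at all 3 times in both genotypes, with the call in mut at 6 h lost without mut solvent 1-1, mut 6 h 65-1, mut solvent 1-2 or mut 6 h 65-2 (adjusted p of up to 0.0937). It rose by 0.43 ± 0.07 (adjusted p = 6.67e-06) in WT and rose by 0.48 ± 0.07 (adjusted p = 1.18e-05) in mut at 24 h. The liver-type PFKL fell by 0.44 ± 0.07 (adjusted p = 1.3e-05) in WT and fell by 0.36 ± 0.07 (adjusted p = 0.000639) in mut at 72 h. ALDOC, the brain-type aldolase, went from a mean of 14.2 ± 3.82 CPM in WT solvent libraries to 7.78 ± 0.810 CPM after 72 h, where it fell by 0.86 ± 0.18 (adjusted p = 0.000248), with a change of -0.11 ± 0.16 (adjusted p = 0.661) in mut. The abundant aldolase gene ALDOA fell in WT by 0.26 ± 0.07 at 72 h (adjusted p = 0.003), which TMM did not call (-0.10, adjusted p = 0.308). TPI1, which interconverts the triose phosphates, fell by 0.46 ± 0.08 (adjusted p = 3.32e-05) in WT and fell by 0.23 ± 0.08 (adjusted p = 0.0412) in mut at 24 h, the latter without a call under TMM (-0.15, adjusted p = 0.261) and lost without mut solvent 1-1, mut 24 h 1-1, mut solvent 65-1, mut 24 h 65-1, mut solvent 1-2 or mut 24 h 65-2 (adjusted p of up to 0.159). Of the 9 genes from hexokinase to the triose phosphates, 8 fell and 1 rose in WT at 72 h, where 38.4% of all genes fell and 13.9% rose, and with TMM 5 fell and 1 rose (23.3% and 21.5%). In the same part of the pathway 3 fell and 1 rose in mut, where 16.3% of all genes fell and 7.81% rose.

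The lower part of the pathway, from triose phosphates to pyruvate, holds the most abundant members. On the scale of CPM per kb of exon, GAPDH stood at 1075 in WT solvent, ENO1 at 339 and PKM at 219.9, and the neuronal enolase ENO2 at 0.303. GAPDH, the oxidising step, fell by 0.41 ± 0.07 (adjusted p = 1.32e-05) in WT and fell by 0.25 ± 0.07 (adjusted p = 0.00783) in mut at 72 h. The kinase gene PGK1 fell by 0.19 ± 0.06 (adjusted p = 0.0111), the mutase gene PGAM1 fell by 0.35 ± 0.09 (adjusted p = 0.0021) and the enolase gene ENO1 fell by 0.30 ± 0.07 (adjusted p = 0.000803) in WT at 72 h. Of these 4 genes, with TMM only GAPDH kept its call at 72 h (-0.25, adjusted p = 0.00888). The PGK1 call was lost without WT solvent 27-2 or WT 72 h 2-2 (adjusted p of up to 0.0565). In mut the changes of PGK1, PGAM1 and ENO1 at 72 h were -0.16, -0.07 and -0.06, none called. PKM, which makes pyruvate, went the other way: its changes were 0.11 ± 0.07 (adjusted p = 0.207) in WT and 0.19 ± 0.07 (adjusted p = 0.0531) in mut at 72 h, and TMM called both as rises (0.27, adjusted p = 0.00656 and 0.27, adjusted p = 0.0162). Reads of the abundant glycolytic genes can also be shared with their processed pseudogenes.

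The members that encode lactate dehydrogenases and pyruvate dehydrogenase kinases all fell in WT. LDHA (ENSG00000134333, chr11:18394560-18408425), the muscle-type lactate dehydrogenase, stood at 1384, 1295, 1384 and 1406 CPM in WT solvent and 1069, 966, 1121 and 1157 CPM at 72 h. In mut it stood at 1453, 1277, 1344 and 1189.8 CPM in solvent and 1276, 1111, 1299 and 1179 CPM at 72 h. The WT groups did not overlap and the mut groups did. LDHA fell by 0.35 ± 0.08 (adjusted p = 0.000552) in WT at 72 h, against -0.18 (adjusted p = 0.0518) with TMM, and its change in mut was -0.11 ± 0.08 (adjusted p = 0.323). LDHB (ENSG00000111716, chr12:21635342-21757857), the heart-type subunit, was counted at 468, 524, 422 and 504 CPM in WT solvent, 341, 342, 315 and 316 CPM at 24 h and 315, 325, 311 and 334 CPM at 72 h. Its mut values were 518, 479.5, 513 and 458 CPM with solvent, 411, 448, 420.4 and 372 CPM at 24 h and 451, 413, 468 and 452 CPM at 72 h. All WT libraries at 24 and 72 h lay below all WT solvent libraries and below the mut libraries of their time. LDHB fell by 0.57 ± 0.06 (adjusted p = 2.49e-08) in WT at 72 h, also with TMM (-0.41, adjusted p = 8.92e-06). In mut LDHB fell by 0.25 ± 0.06 (adjusted p = 0.00486) at 24 h, and the change at 72 h was -0.14 ± 0.06 (adjusted p = 0.112), called with the series block (-0.14, adjusted p = 0.0434).

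PDK1 (ENSG00000152256, chr2:172555373-172608669), a pyruvate dehydrogenase kinase, stood at 23.8, 22.8, 24.2 and 24.0 CPM in WT solvent, 19.6, 16.5, 15.5 and 14.8 CPM at 6 h, 12.4, 9.65, 13.5 and 12.4 CPM at 24 h and 13.8, 10.1, 13.4 and 14.8 CPM at 72 h. In mut it stood at 21.2, 24.8, 20.8 and 23.3 CPM with solvent, 16.9, 20.5, 15.7 and 17.3 CPM at 6 h, 16.7, 15.4, 18.03 and 16.9 CPM at 24 h and 16.8, 17.1, 19.4 and 15.8 CPM at 72 h. Treated and solvent libraries did not overlap in either genotype at any time. PDK1 in WT fell by 0.53 ± 0.10 (adjusted p = 0.000529) at 6 h, by 0.98 ± 0.11 (adjusted p = 2e-08) at 24 h and by 0.87 ± 0.11 (adjusted p = 1.34e-07) at 72 h. In mut the falls were 0.37 ± 0.10 (adjusted p = 0.024), 0.43 ± 0.10 (adjusted p = 0.00324) and 0.39 ± 0.10 (adjusted p = 0.00499). The call in mut at 6 h was lost without mut 6 h 1-1, mut 6 h 65-1, mut solvent 1-2, mut solvent 65-2 or mut 6 h 65-2 (adjusted p of up to 0.137). PDK3, a less abundant kinase of the same family, fell by 0.50 ± 0.20 (adjusted p = 0.035) in WT at 72 h, without a call under TMM (-0.34, adjusted p = 0.171) and lost without WT 72 h 27-1, WT solvent 2-1, WT solvent 27-2 or WT 72 h 2-2 (adjusted p of up to 0.156).

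PFKFB3 and PFKFB4 encode bifunctional enzymes that set the level of the fructose bisphosphate which activates phosphofructokinase. PFKFB4 (ENSG00000114268, chr3:48517684-48562015) stood at 18.8, 13.4, 15.5 and 13.3 CPM in WT solvent, 21.2, 20.2, 25.1 and 21.8 CPM at 6 h, 27.7, 30.02, 27.5 and 26.2 CPM at 24 h and 21.5, 23.5, 19.8 and 23.2 CPM at 72 h. In mut it stood at 15.004, 12.6, 14.8 and 10.5 CPM with solvent, 23.8, 13.4, 21.0 and 20.2 CPM at 6 h, 27.9, 20.4, 28.01 and 24.3 CPM at 24 h and 27.1, 24.0, 31.6 and 33.8 CPM at 72 h. Every treated WT library exceeded every WT solvent library, and in mut this held at 24 and 72 h. The WT mean was highest at 24 h and the mut mean at 72 h, where the mut libraries all exceeded the WT libraries. PFKFB4 rose by 0.87 ± 0.15 (adjusted p = 1.28e-05) in WT at 24 h and rose by 0.53 ± 0.15 (adjusted p = 0.00425) at 72 h, and in mut rose by 0.93 ± 0.15 (adjusted p = 6.05e-05) at 24 h and by 1.13 ± 0.15 (adjusted p = 1.81e-06) at 72 h. PFKFB3 was called in mut only, where it rose by 0.28 ± 0.07 (adjusted p = 0.00406) at 72 h, while its change in WT was 0.04 ± 0.07 (adjusted p = 0.698). The difference between these PFKFB3 changes was not called (0.24 ± 0.10, adjusted p = 0.108), except with the series block (0.25, adjusted p = 0.0324).

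**Figure D3:**
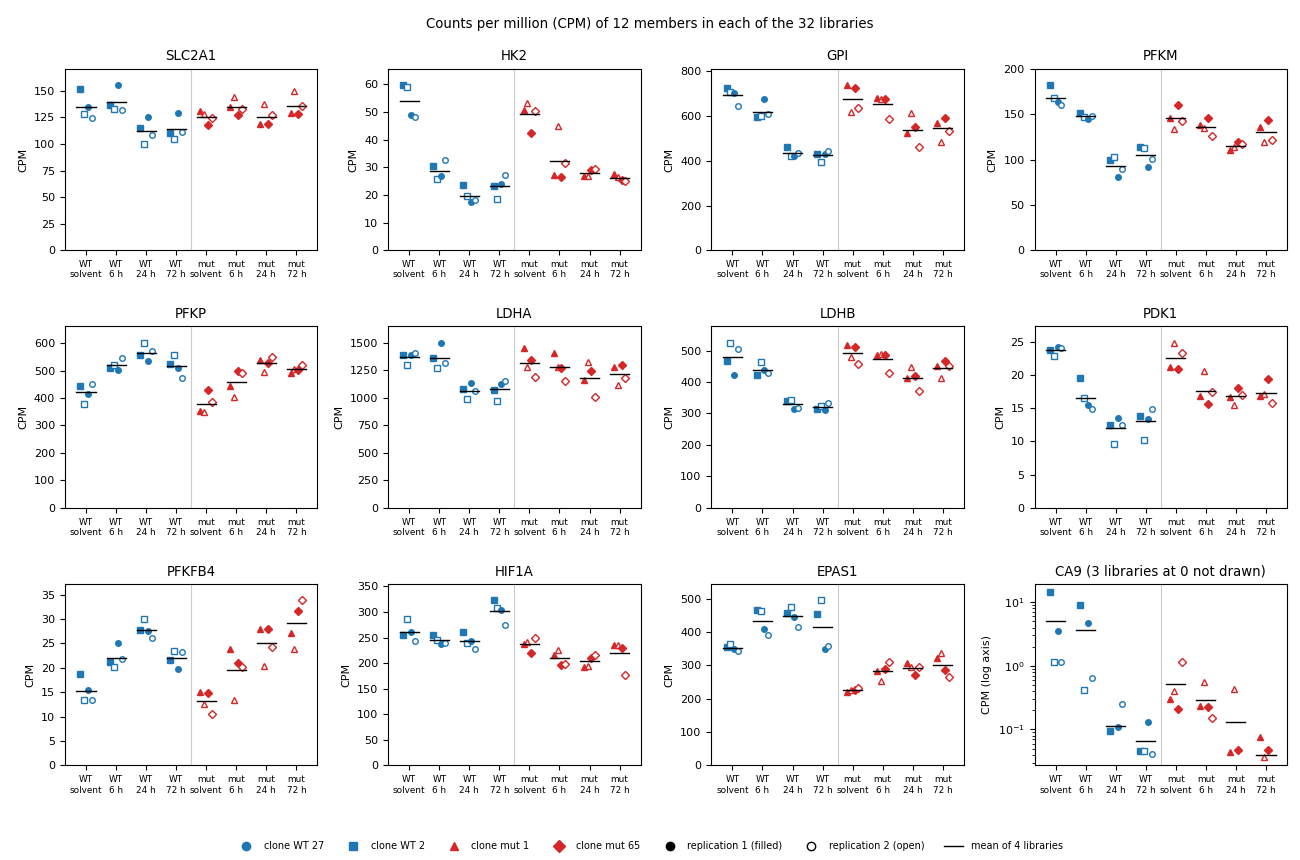
CPM of 12 members (y axes, logarithmic for CA9 and linear for the rest) in each library, by treatment (x axis) and genotype, with 1 point per library (shape for the clone, filled for replication 1, open for 2) and a line at the mean of 4 libraries. For HK2 and PDK1 all treated WT libraries lie below the solvent libraries, and for EPAS1 the mut libraries lie below the WT libraries in every state. The 3 CA9 libraries at 0 counts are not drawn.

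Of the HIF alpha subunits, EPAS1 rose with TGFβ1 in both genotypes and was lower in mut at every time. EPAS1 (ENSG00000116016, chr2:46293667-46386697) stood at 355, 363, 349 and 342 CPM in WT solvent, 465, 462, 409.6 and 389.7 CPM at 6 h, 457, 476, 445 and 416 CPM at 24 h and 454, 494, 349 and 359 CPM at 72 h. In mut it stood at 219.6, 226, 225 and 231 CPM with solvent, 282, 252, 289 and 309 CPM at 6 h, 307, 295, 272 and 295 CPM at 24 h and 321, 336, 287 and 265 CPM at 72 h. The highest mut library of each time was below the lowest WT library of that time. At 72 h the 2 replications of WT clone 27 had returned to the level of the solvent libraries, while those of clone 2 had not. EPAS1 rose by 0.35 ± 0.09 (adjusted p = 0.00148) in WT at 24 h and rose by 0.22 ± 0.09 (adjusted p = 0.0393) at 72 h, and rose by 0.42 ± 0.09 (adjusted p = 0.000838) in mut at 72 h. The WT call at 72 h was lost without WT solvent 27-1, WT solvent 2-1, WT 72 h 2-1, WT solvent 27-2 or WT 72 h 2-2 (adjusted p of up to 0.233). The rises at 6 h were 0.29 ± 0.09 in WT (adjusted p = 0.0221), lost without WT 6 h 2-1 or WT 6 h 2-2 (adjusted p of up to 0.0814), and 0.32 ± 0.09 in mut (adjusted p = 0.0242), lost without mut solvent 1-1, mut 6 h 65-1, mut solvent 1-2 or mut 6 h 65-2 (adjusted p of up to 0.121).

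HIF1A (ENSG00000100644, chr14:61695513-61748259) did not rise with EPAS1 except in WT at 72 h. It was counted at 254, 286, 260.4 and 243 CPM in WT solvent, 261, 240.0, 244 and 228 CPM at 24 h and 322, 308, 304 and 274 CPM at 72 h. In mut it was counted at 237, 242, 219 and 249 CPM with solvent, 193, 195, 209 and 215 CPM at 24 h and 236, 235, 229.8 and 176 CPM at 72 h. At 72 h all WT libraries exceeded all mut libraries, the lowest mut library being replication 2 of clone 65. HIF1A rose by 0.21 ± 0.07 (adjusted p = 0.0179) in WT at 72 h, a call lost without WT 72 h 2-1 or WT solvent 27-2 (adjusted p of up to 0.0638). It fell by 0.22 ± 0.07 (adjusted p = 0.0311) in mut at 24 h, which TMM did not call (-0.13, adjusted p = 0.199) and which was lost without mut solvent 1-1, mut 24 h 1-1, mut solvent 1-2, mut 24 h 1-2 or mut solvent 65-2 (adjusted p of up to 0.099). The main HIF prolyl hydroxylase gene EGLN1 was called lower at all times in both genotypes, by 0.26 ± 0.07 in WT (adjusted p = 0.0077) and 0.32 ± 0.07 in mut (adjusted p = 0.00487) at 6 h. Its call in mut at 72 h was lost without mut solvent 1-1, mut 72 h 1-1, mut 72 h 65-1, mut solvent 1-2, mut 72 h 1-2, mut solvent 65-2 or mut 72 h 65-2 (adjusted p of up to 0.147). With TMM it was called in WT at 6 h and in mut at 6 and 24 h. EGLN3, a hydroxylase gene with HIF-dependent expression, was low and uneven: WT solvent libraries held 7.36, 1.13, 2.20 and 0.828 CPM. Its change in WT at 24 h was -1.24 ± 0.67 (adjusted p = 0.122), and -1.67 (adjusted p = 0.00321) with the series block.

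CA9 (ENSG00000107159, chr9:35673928-35681159), a membrane carbonic anhydrase used as a marker of HIF activity, nearly vanished with TGFβ1 in WT cells. The WT solvent libraries held 636, 45, 170 and 46 counts, those at 6 h 356, 22, 208 and 30, those at 24 h 4, 0, 6 and 12 and those at 72 h 2, 2, 6 and 2. In mut the counts were 14, 18, 10 and 57 in solvent, 10, 23, 12 and 8 at 6 h, 2, 19, 2 and 0 at 24 h and 4, 2, 2 and 0 at 72 h. All WT libraries at 24 and 72 h lay below all WT solvent libraries, but 636 of the 897 WT solvent counts came from replication 1 of clone 2, and in both WT clones replication 1 held more CA9 than replication 2. Over the pooled counts, CA9 at 72 h stood at 1.26% of its solvent level in WT (exact 95% interval for counting error, 0.651 to 2.22%) and at 7.87% in mut (3.3 to 16.1%). Without the WT solvent library 2-1 the WT value was 3.22% (1.64 to 5.72%), and its interval then overlapped that of mut. In the fit CA9 fell by 5.43 ± 1.81 (adjusted p = 0.0132) in WT at 72 h, and its change in mut was -3.39 ± 2.23 (adjusted p = 0.286), called with the series block (-3.12, adjusted p = 0.0196). The 2 changes were not shown to differ (2.04 ± 2.87, adjusted p = 0.705).

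The other hypoxia-responsive members did not share a direction. CA12 (ENSG00000074410, chr15:63321378-63381846), another membrane carbonic anhydrase, stood at 161, 131, 119 and 118 CPM in WT solvent, 198, 190.2, 155 and 114 CPM at 24 h and 118, 118, 97.9 and 83.6 CPM at 72 h. Its mut values were 90.3, 75.2, 82.2 and 65.3 CPM with solvent, 135, 113, 109.8 and 116 CPM at 24 h and 93.6, 85.3, 78.2 and 79.2 CPM at 72 h. The mut libraries at 24 h were all above the mut solvent libraries, and the WT groups overlapped. CA12 rose by 0.60 ± 0.17 (adjusted p = 0.0116) in mut at 24 h, and its change in WT at 72 h was -0.35 ± 0.17 (adjusted p = 0.0893). BNIP3L (ENSG00000104765, chr8:26383054-26505636), a mitophagy receptor, stood at 44.9, 40.1, 44.9 and 30.7 CPM in WT solvent and 56.2, 56.7, 58.3 and 53.2 CPM at 72 h. In mut it stood at 47.0, 53.8, 43.9 and 50.2 CPM in solvent and 51.2, 50.3, 47.7 and 58.9 CPM at 72 h. All WT libraries at 72 h were above those in solvent, and the mut groups overlapped. BNIP3L rose by 0.49 ± 0.12 (adjusted p = 0.00105) in WT at 72 h, with a change of 0.09 ± 0.12 (adjusted p = 0.602) in mut. Its relative BNIP3, also a mitophagy receptor, fell by 0.41 ± 0.14 (adjusted p = 0.0322) in mut at 24 h, which TMM did not call and which was lost without mut solvent 1-2, mut 24 h 1-2, mut solvent 65-2 or mut 24 h 65-2 (adjusted p of up to 0.135).

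ADM (ENSG00000148926, chr11:10305073-10307397), the gene for the vasodilator peptide adrenomedullin, stood at 6.64, 7.20, 5.01 and 7.38 CPM in WT solvent and 7.44, 7.06, 11.1 and 8.11 CPM at 72 h. In mut it stood at 3.05, 3.32, 4.46 and 4.75 CPM in solvent and 4.54, 4.35, 4.87 and 5.12 CPM at 72 h. The WT groups overlapped, and all mut libraries were below all WT libraries in both states. ADM rose by 0.37 ± 0.15 (adjusted p = 0.0359) in WT at 72 h, a call lost without WT solvent 27-1, WT 72 h 27-1 or WT solvent 2-1 (adjusted p of up to 0.197). The library that raised it most was that of clone 27 replication 1. NDRG1, a stress-responsive gene, ranged from 176 to 382 CPM in WT solvent, where library 2-1 stood alone at the top, and it was not called at any time in the main test. ANKRD37, a small HIF target, was at 0.892 ± 0.194 CPM (SD, n = 4) in WT solvent and was not called.

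Without TGFβ1 the genotypes differed in few members. In solvent 4 members were called lower in mut than in WT and 0 higher, where 6.32% and 6.38% of all genes were. These were EPAS1 (-0.64 ± 0.09, adjusted p = 7.28e-06), CA12 (-0.76 ± 0.17, adjusted p = 0.00339), ADM (-0.74 ± 0.17, adjusted p = 0.00393) and SLC16A1 (-0.22 ± 0.07, adjusted p = 0.0284). For EPAS1, CA12 and ADM the values listed above did not overlap between the genotypes in solvent. The SLC16A1 call was lost without mut solvent 1-1, mut solvent 65-1, mut solvent 65-2, WT solvent 27-2 or WT solvent 2-2 (adjusted p of up to 0.121). The edgeR and DESeq2 tests called 6 members lower and 0 higher here, but the share of all genes under these tests was not computed. At 6 h 8 members were called, 3 higher and 5 lower in mut, where 11.3% and 10.0% of all genes were. With TMM the 3 higher ones, SLC16A3, PFKL and ENO1, were no longer called, leaving 0 higher and 5 lower (10.5% and 10.9% of all genes). Without WT clone 2 replication 1 the calls at 6 h were 3, in a fit whose share of all genes was not computed.

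After 24 and 72 h with TGFβ1 several glycolytic members stood higher in mut than in WT, at a share close to that of all genes at both times. At 24 h 13 members were called, 9 higher and 4 lower in mut (24.7% and 12.2% of all genes), and at 72 h 15 were, 11 higher and 4 lower (26.0% and 13.2%). With TMM the calls at 72 h were 6 higher and 4 lower (18.7% and 17.8%), and of the 9 and 11 higher members 7 and 6 were called with TMM. HK2 was higher in mut by 0.53 ± 0.14 (adjusted p = 0.00374) at 24 h, and at 72 h the difference was 0.18 ± 0.14 (adjusted p = 0.302). GPI was higher by 0.36 ± 0.08 (adjusted p = 0.000447), LDHB by 0.47 ± 0.06 (adjusted p = 1.44e-06), PDK1 by 0.41 ± 0.11 (adjusted p = 0.00402) and ALDOC by 0.75 ± 0.18 (adjusted p = 0.00152) at 72 h. On the lower side at 72 h stood HIF1A (-0.47 ± 0.07, adjusted p = 1.34e-05), EPAS1 (-0.44 ± 0.09, adjusted p = 0.000197), ADM (-0.83 ± 0.15, adjusted p = 0.000106) and ENO2 (-1.46 ± 0.48, adjusted p = 0.0173), the last a gene of few counts whose call was lost without mut 72 h 1-2 (adjusted p of up to 0.0503). EPAS1 and ADM were called lower in mut in all 4 states.

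Whether TGFβ1 changed the members differently in the genotypes was tested as the difference of the log2 changes, mut minus WT. At 6 h 0 members were called by limma-voom, where 0.0740% of all genes were, and 1 member had an unadjusted p under 0.05. The edgeR and DESeq2 tests also called 0. At 24 h 5 members were called, all with a higher value in mut, where 7.72% of all genes were called higher and 1.93% lower. At 72 h 7 were, 6 higher and 1 lower, where 9.40% and 2.92% of all genes were. With TMM the calls were 3 higher and 0 lower at 24 h (2.96% and 2.80% of all genes) and 2 higher and 1 lower at 72 h (4.53% and 4.15%). With the series as a block they were 12 at 24 h (18.7% of all genes in either direction) and 16 at 72 h (23.5%). With the replications of a clone summed, so that the clone is the unit, they were 0 at 24 h (2.10% of all genes) and 3 at 72 h (4.37%), namely PFKM, ALDOC and LDHB. Without WT clone 2 replication 1 they were 3 at each time, in a fit whose share of all genes was not computed. Of the 18 members called lower in WT at 24 h, 17 had a smaller fall in mut or none, and 7 were called lower there. Of the 19 at 72 h all 19 had a smaller fall in mut or none, and 6 were called. These members were picked by their fall in WT, which alone favours a smaller fall in mut. The matching share over all genes was not computed. The median of the differences at 72 h was 0.24 over the members and 0.10 over all genes.

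PFKM had the smallest adjusted p at 72 h: its change in mut exceeded that in WT by 0.52 ± 0.11 (adjusted p = 0.00308) at 24 h and 0.52 ± 0.11 (adjusted p = 0.00181) at 72 h, and both calls remained in all 16 fits that left out 1 of the libraries compared. With the replications of a clone summed, the PFKM difference was 0.52 at both times, not called at 24 h (adjusted p = 0.0573) and called at 72 h (adjusted p = 0.0415). LDHB differed by 0.43 ± 0.09 (adjusted p = 0.00219) and GPI by 0.39 ± 0.11 (adjusted p = 0.0158) at 72 h, also kept in all 16 fits, though GPI was not called with TMM (0.31, adjusted p = 0.0599) or with the replications of a clone summed (0.39, adjusted p = 0.0509). At 24 h LDHB (0.29 ± 0.09, adjusted p = 0.0412) was lost without mut 24 h 1-1, mut 24 h 65-1, WT 24 h 27-1, WT solvent 2-1, mut solvent 1-2, mut 24 h 1-2, mut solvent 65-2, WT solvent 27-2, WT 24 h 27-2 or WT solvent 2-2 (adjusted p of up to 0.1). GPI at 24 h (0.34 ± 0.11, adjusted p = 0.0426) was lost without mut 24 h 1-1, mut 24 h 65-1, WT solvent 27-1, WT 24 h 27-1, WT solvent 2-1, mut solvent 1-2, mut 24 h 1-2, mut solvent 65-2, WT 24 h 27-2, WT solvent 2-2 or WT 24 h 2-2 (adjusted p of up to 0.112). PDK1 differed by 0.56 ± 0.15 (adjusted p = 0.0177) at 24 h, a call lost without WT 24 h 2-2 (adjusted p of up to 0.0533). At 72 h it differed by 0.48 ± 0.15 (adjusted p = 0.0277), lost without mut solvent 65-1, mut 72 h 65-1 or WT 72 h 2-2 (adjusted p of up to 0.0907). HK2 differed by 0.67 ± 0.18 (adjusted p = 0.0196) at 24 h, lost without WT 24 h 27-1 (adjusted p of up to 0.0501). SLC2A1 differed by 0.36 ± 0.11 (adjusted p = 0.027) at 72 h, lost without mut solvent 65-1, WT solvent 2-1, mut 72 h 1-2 or WT 72 h 2-2 (adjusted p of up to 0.0711). ALDOC differed by 0.75 ± 0.24 (adjusted p = 0.0386), lost without mut 72 h 1-1, mut 72 h 65-1, WT solvent 27-1, WT 72 h 27-1, WT solvent 2-1, WT 72 h 2-1, mut solvent 1-2, mut solvent 65-2 or WT 72 h 27-2 (adjusted p of up to 0.101). Neither was called with TMM. Of all members with a higher value in mut, 3 of 5 at 24 h and 2 of 6 at 72 h were also called with TMM. HIF1A was the exception in sign, with -0.33 ± 0.11 (adjusted p = 0.0369) at 72 h, called with TMM and lost without mut solvent 1-1, WT solvent 27-1, WT 72 h 27-1, WT solvent 2-1, WT 72 h 2-1, mut solvent 1-2, mut solvent 65-2, mut 72 h 65-2, WT solvent 27-2 or WT 72 h 2-2 (adjusted p of up to 0.0772).

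**Figure D4:**
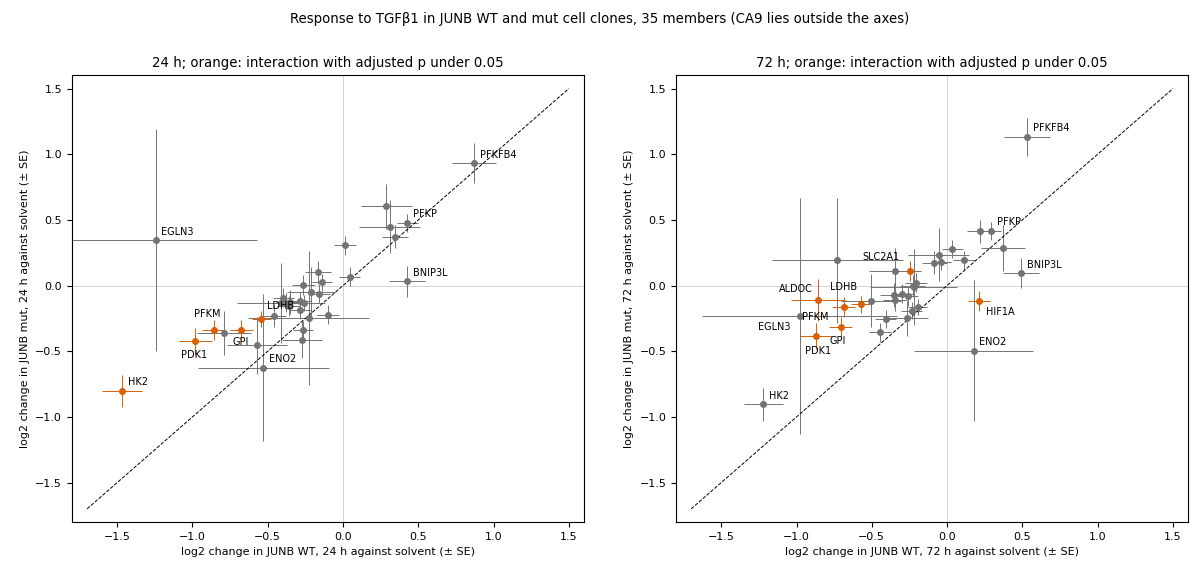
Log2 change with TGFβ1 in WT (x axis) and in mut (y axis) at 24 and 72 h for 35 members, with bars of 1 SE, a dashed line of equal change and orange points where the difference between the changes was called. Orange points number 5 at 24 h and 7 at 72 h, and CA9 lies outside the axes.

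Within families of isoenzymes the make-up changed, as seen in shares of summed CPM per kb. These families were picked after the values had been seen, and the shares do not depend on the scaling of the libraries. PFKP made up 57.1% ± 2.60 (SD, n = 4) of the phosphofructokinase transcripts in WT solvent and 73.4% ± 0.563 at 24 h, against 55.9% ± 1.09 and 67.4% ± 1.92 in mut. HK2 made up 13.4% ± 1.56 of HK1 and HK2 in WT solvent, 5.91% ± 0.865 at 24 h and 7.07% ± 0.790 at 72 h, and in mut 12.01% ± 1.46, 7.52% ± 0.247 and 6.66% ± 0.403. The LDHB share of the lactate dehydrogenase transcripts went from 41.4% ± 2.87 to 37.6% ± 1.99 in WT and from 43.1% ± 0.843 to 42.6% ± 0.875 in mut. The EPAS1 share of HIF1A and EPAS1 was 48.9% ± 1.19 in WT solvent, 56.6% ± 1.28 at 24 h and 49.0% ± 3.48 at 72 h. In mut it was 40.3% ± 1.18, 50.4% ± 2.26 and 49.4% ± 1.95, and the ranges of the genotypes did not overlap in solvent and overlapped at 72 h.

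Of 101 further genes of the same pathways, 94 were in the table. At 72 h 38.4% of all genes tested fell and 13.9% rose in WT, and 16.3% fell and 7.81% rose in mut, and the counts below stand beside these shares. The 7 tested genes of the pentose phosphate pathway, which branches off at glucose phosphate, all fell in WT at 72 h (5 with TMM), by most in RPIA (log2 change -0.81, adjusted p = 1.35e-07), and 1 fell in mut. Another 11 genes carry pyruvate into the mitochondria, oxidise it there or raise or lower that oxidation. Of these 9 fell and 0 rose in WT and 8 fell and 0 rose in mut. The largest fall in WT was in PDK4, the gene of an inhibitory pyruvate dehydrogenase kinase (log2 change -2.44, adjusted p = 0.00578). Of 27 other HIF targets, 11 rose and 7 fell in WT and 8 rose and 6 fell in mut at 72 h. The falls were led by the mTOR inhibitor gene DDIT4 (log2 change -1.55, adjusted p = 2.75e-10). Of 6 oxygen-sensing genes and HIF partners 1 rose and 2 fell in WT, among them the HIF partner ARNT (log2 change 0.22, adjusted p = 0.00594) and the HIF antagonist CITED2 (log2 change -0.87, adjusted p = 2.13e-05). Of 11 glycogen genes, 2 rose and 6 fell in WT (3 with TMM) and 2 rose and 1 fell in mut. Of 12 other glycolytic isoforms and side enzymes, 1 rose and 4 fell in WT and 1 rose and 1 fell in mut, of 3 gluconeogenic genes 2 fell in each genotype, and of 7 other transporters 2 rose and 2 fell in WT and 1 and 1 in mut.

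Genes of proliferating cells were also examined. Of 8 proliferation genes (among them MKI67, TOP2A and CDK1), 8 were called lower in WT at 24 h with a median of -1.14 and 6 at 72 h with a median of -0.52, where 38.0% and 38.4% of all genes were lower. In mut 6 were called lower at 24 h with a median of -0.44 and 0 at 72 h with a median of -0.20, where 17.1% and 16.3% of all genes were. None was called higher in these 4 comparisons. The difference of the changes was called, with mut above WT, for 6 of the 8 at 24 h and for 0 at 72 h, against 7.72% and 9.40% of all genes. With TMM 8 and 4 were called lower in WT at 24 and 72 h (23.2% and 23.3% of all genes). In mut 3 and 0 were (8.04% and 9.91%). The difference with mut above WT was then called for 3 and 0 (2.96% and 4.53%). Their summed level ranged from 1313 to 1640.0 CPM in WT solvent, 513 to 796 CPM in WT at 24 h and 811 to 1208 CPM in WT at 72 h, and from 1298 to 1417, 913 to 1094 and 892 to 1360.1 CPM in mut. Their part in the changes of the members was not tested. In bulk samples, less RNA of a gene per cell and fewer cells that express it cannot be told apart.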

How the data were processed

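RNA was sequenced from 4 clones of MCF10A cells in 4 treatments and 2 replications. The authors trimmed the reads with Trimmomatic, aligned them to the Ensembl human genome GRCh38 with STAR and deposited read counts per gene. Versions and the strand setting are not given in the sources used here, and the library kit does not mark strand. The deposited table holds whole-number counts for 17788 Ensembl identifiers in 32 columns, each of which matched 1 sample, and 0 columns were left unused. GENCODE 44 gave a symbol for 17763 identifiers. The 36 members and all other gene lists were chosen with earlier results of these data known, so their directions are not independent evidence.

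Counts were scaled by library size. Genes that passed filterByExpr (minimum count 10, minimum total 15) entered the test, which kept 14865 genes and all 36 members. The test was limma-voom (limma 3.58.1, edgeR 4.0.16, R 4.3.3) with 1 term per group over all 32 libraries, and p-values were adjusted over all genes by the method of Benjamini and Hochberg with a threshold of 0.05. Mean log2 CPM over members was computed with a prior count of 2 and has no test. CPM per kb divides by exon length.

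The libraries with a given clone and replication form a series and come from the same clone, which pairs them. The deviations of libraries of a series from their group means correlated with a mean r of 0.346 over 48 pairs (lowest 0.0225), against 0.0183 for the other replication of the clone, -0.0995 for the other clone with the same replication number and -0.249 for the rest. Across members and comparisons, the series block added 46 calls to those of the main fit and removed 0. Only some of the added calls are named in the text. No pair of libraries in a group agreed within sampling noise, as chi-square per degree of freedom was at least 11.5 in all pairs. Counting intervals and floors cover counting error only.

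Values per library were given for SLC2A1, LDHA, HIF1A and EPAS1, for the 3 largest rises and 3 largest falls among the calls in WT at 72 h, for the 2 highest and 2 lowest calls between genotypes in solvent, and for the members with the smallest adjusted p of the genotype difference in response, 4 at 72 h and 2 at 24 h. Alternatives were TMM factors, the series as a block, DESeq2 1.42.0, edgeR, other filters and prior counts, summed replications of a clone, fits on the compared groups alone and fits without each library or series. Leaving out the series WT 2-1, leaving CA9 out of the member mean and leaving the WT solvent library 2-1 out of the pooled CA9 level were added after the data had been seen. The authors' comparisons were not used.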

Additional observations from a re-analysis of the deposited data

Results flagged for a closer look

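In each group of 4 libraries, the highest and the lowest library were compared with the others by the gap to the nearest library over the whole range, by the criterion of Dixon. Of 304 such groups of member levels, member means and library totals 11 had a library apart, and chance sets apart about 1 group in 20. The WT solvent library 2-1 held NDRG1 at 382 CPM, against 176 to 188 in the other libraries, and its mean log2 CPM over all members was 6.83, against 6.5 to 6.53. In WT at 6 h, GPI stood at 676 CPM in 27-1 (others 597 to 608) and PGAM1 at 317 CPM in 27-2 (others 247 to 250). In WT at 24 h SLC16A3 stood at 600 CPM in 27-2 (others 478 to 493), and at 72 h SLC16A1 stood at 353 CPM in 27-2 (others 324 to 328) and CA9 at 0.132 CPM in 27-1 (others 0.0405 to 0.0466). In mut solvent ENO2 stood at 0.989 CPM in 65-1 (others 0.539 to 0.583). The mut libraries 65-2 were low for GPI at 6 h with 587 CPM (others 675 to 682), for LDHB at 6 h with 429 CPM (others 486 to 489) and for HIF1A at 72 h with 176 CPM (others 230 to 236).

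The change with TGFβ1 differed between the genotypes in the test of the difference for 5 members at 24 h and 7 at 72 h, given here as the log2 change in mut minus that in WT. At 24 h the differences were 0.67 for HK2, 0.34 for GPI, 0.52 for PFKM, 0.29 for LDHB and 0.56 for PDK1. At 72 h they were 0.36 for SLC2A1, 0.39 for GPI, 0.52 for PFKM, 0.75 for ALDOC, 0.43 for LDHB, 0.48 for PDK1 and -0.33 for HIF1A. Among these, PFKM at both times and GPI and LDHB at 72 h kept their call without any single library. With the replications of a clone summed, the calls were PFKM, ALDOC and LDHB at 72 h and 0 at 24 h.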

How the results depend on the processing

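No member changed its direction where it was called, under any alternative run. Of the 137 calls, 97 remained without every single library of the comparison. The share of all genes called moved with the setting as well. In the difference at 72 h it was 12.3% in the main fit, 8.68% with TMM, 23.5% with the series block and 4.37% with the replications of a clone summed. Counts below without such a share are therefore not results about the members. With TMM factors 5 members were called in mut against WT at 6 h, and 3 in the difference of responses at 24 h and 3 at 72 h. A replicate block for the series gave 11 calls in WT at 6 h, 17 in mut at 72 h, and 12 and 16 in the difference of responses at 24 and 72 h, and with TMM and the block together 10 in WT at 6 h, 12 in mut at 6 h and 11 in the difference at 72 h. With the replications of a clone summed, the counts were 1 and 9 in mut at 6 and 24 h, 4 in mut against WT at 6 h, and 0 and 3 in the difference at 24 and 72 h. Fits on the compared groups alone gave 4 in mut at 6 h and 5 in mut against WT at 6 h. Without the series mut 1-2 the difference at 24 h had 3 calls, and without WT 2-1 it had 3 at 24 h and 3 at 72 h, and mut against WT at 6 h had 3. Leaving out 1 library gave 2 to 8 calls in mut at 6 h (2 without mut solvent 1-2, mut 6 h 65-1 or mut 6 h 65-2), 3 to 8 in mut against WT at 6 h (3 without WT 6 h 2-1), 2 to 6 in the difference at 24 h (2 without WT 24 h 27-1) and 4 to 7 at 72 h (4 without WT solvent 2-1 or WT 72 h 2-2). The mean log2 CPM differences with TMM were -0.219 and -0.220 in WT at 24 and 72 h, 0.000888, -0.0398 and -0.0133 in mut at 6, 24 and 72 h, -0.0945 and -0.0671 for mut against WT at 24 and 72 h, and 0.207 for the difference at 72 h. With the median level of the members in each library in place of the mean they were -0.182 in WT at 24 h, -0.235 and -0.214 in mut at 24 and 72 h, 0.00690, -0.0458 and 0.178 for mut against WT in solvent and at 6 and 72 h, and -0.0535 and 0.171 for the difference at 24 and 72 h. Without CA9 they were -0.254 in WT at 72 h and -0.0707 and -0.0181 in mut at 24 and 72 h. The cause was not tested. Low counts limit what can be said of CA9, EGLN3, ENO2 and ANKRD37.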

Other observations

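Some low members differed widely between clones or replications of a group. SLC2A3 (GLUT3) was counted at 21.2, 19.4, 9.23 and 9.08 CPM in WT solvent libraries, in the order of clone 2 and then clone 27, and at 10.9, 8.78, 4.99 and 6.52 CPM in mut solvent libraries, clone 1 and then clone 65. ENO2 was counted at 1.78, 0.806, 0.566 and 2.03 CPM in WT solvent and 0.550, 0.539, 0.989 and 0.583 CPM in mut solvent. EGLN3 stood at 8.32, 0.786, 2.06 and 0.487 CPM in WT at 6 h, again with replication 1 above replication 2 in both clones.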
